A study of Mus musculus with 14 samples.

Results

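Axon guidance ligands and receptors are the cell-surface and secreted proteins by which a growing axon reads its surroundings. The genes described here are the mouse semaphorins of classes 3 to 7, plexins, neuropilins, ephrins, Eph receptors, Slits, Robos, netrins (with the netrin-G genes), the Unc5 receptors and Dcc, chosen by their symbols and by no measured value. Of 22851 genes in the RNA-seq tables, 70 were members, 36 of them ligands and 34 receptors. A further RefSeq symbol that fits the rule, Ntn3, has no locus in the tables and was not analysed. The families hold 20 semaphorins, 9 plexins, 2 neuropilins, 5 ephrin-A and 3 ephrin-B ligands, 9 EphA and 5 EphB receptors, 3 Slits, 4 Robos, 5 netrins and 5 netrin receptors.

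Semaphorins act through plexins, and the secreted class 3 semaphorins mostly need a neuropilin as the ligand-binding partner. Slits are secreted repellents read by Robo receptors, and the secreted netrins, not the netrin-G proteins, attract or repel axons through Dcc and the Unc5 receptors. Ephrins and Eph receptors meet at contacts between cells, where each side can signal. In the spinal cord these systems steer commissural axons at the floor plate and motor axons toward their targets, and many of the genes also act outside the nervous system, for instance in blood vessels and epithelia.

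The study asked how loss of TAF9B, a protein related to the TFIID subunit TAF9, affects gene expression as mouse embryonic stem (ES) cells are turned into motor neurons. WT cells (JM8 clone) and cells labelled TAF9B -/- (Taf9b_BG10 clone), both of C57BL/6 background, were sequenced as ES cells and as embryoid bodies (EBs) at day 2, at day 4, labelled neuronal progenitors, and at day 6, labelled motor neurons. EBs were treated with retinoic acid and a Smoothened agonist, and each genotype is 1 clone. Spinal column of newborn WT and TAF9B -/- mice and spinal cord of newborn WT mice, all C57BL/6, were sequenced as well. By the study's methods the KO allele has a LacZ and neomycin cassette in place of coding sequence, the ES cells were kept on embryonic fibroblast feeders, and the column is lumbar tissue taken whole. TAF9B and RNA polymerase II (Pol2) were mapped by ChIP-seq in WT motor neuron EBs of a further clone, HBG3, which by the methods were differentiated past day 6.

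Each condition is 1 library, so no difference between conditions has a replicate check and no test was made. Values are FPKM, fragments scaled to transcript length and to library size, so that levels can be compared between genes. The depth of the libraries is unknown. The steps between the lowest values put the depth of the KO-labelled library at 0.781 to 1.42 times that of its WT partner in the cultures and at 0.288 times in spinal column, where only 4.6% of 326 low loci gave that step, so the column value is rough and genes near 1 FPKM there rest on few fragments. Taf9b itself went against the labels in culture: it was at 0.516 to 1.96 FPKM in the 4 culture WT-labelled libraries and at 3.06 to 4.27 FPKM in the 4 labelled KO, while in spinal column it was at 6.65 FPKM in the WT-labelled library and 3.31 FPKM in the KO-labelled library. Whether value columns of the culture tables are exchanged was not settled here. Genotypes are therefore given below as labels only, and the direction of every culture difference rests on them. A gene counts as lower or higher where the pair of libraries was more than 2-fold apart and at least 1 of them exceeded 1 FPKM, here called the limit.

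Among the members that were lower in the EB day 6 KO-labelled library, several had a TAF9B peak near a transcription start site (TSS). The sequence under the peak is shown for 4 of them, those with the 2 largest differences that had a peak (Robo2, Unc5a), the member with the highest level in WT EBs at day 6 (Ntng2), and 1 with a peak at the TSS itself (Plxna2). Each is a window of 200 bases centred on the peak in build mm9, read on the strand of the gene. The Robo2 window, chr16:74413357-74413556 on the minus strand, lies 1.43 kb upstream of the TSS, outside the gene. The Unc5a window, chr13:55096020-55096219 on the plus strand, lies in an intron, 1.78 kb upstream of the nearest annotated internal start. The Ntng2 window, chr2:29110746-29110945 on the minus strand, is 2.32 kb upstream of the TSS. A further Ntng2 peak, in an intron 2.6 kb downstream of a TSS, is not shown. The Plxna2 window, chr1:196445898-196446097 on the plus strand, is centred 25 bp upstream of a TSS. Capitals mark CAGCTG, an E-box of the kind bound by neural bHLH factors, and GGGCGG or its reverse complement, a GC box.
Robo2: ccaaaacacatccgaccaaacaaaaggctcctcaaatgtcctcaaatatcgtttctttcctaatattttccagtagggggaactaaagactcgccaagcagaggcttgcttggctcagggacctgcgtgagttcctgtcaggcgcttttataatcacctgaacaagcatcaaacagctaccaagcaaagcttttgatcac
Unc5a: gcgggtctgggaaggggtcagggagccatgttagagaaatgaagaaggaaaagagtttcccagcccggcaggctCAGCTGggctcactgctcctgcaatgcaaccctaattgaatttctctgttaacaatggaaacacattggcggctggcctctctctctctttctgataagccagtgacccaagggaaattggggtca
Ntng2: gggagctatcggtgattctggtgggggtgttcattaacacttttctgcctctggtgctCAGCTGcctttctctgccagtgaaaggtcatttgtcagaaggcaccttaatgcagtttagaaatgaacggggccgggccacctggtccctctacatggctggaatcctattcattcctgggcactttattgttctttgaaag
Plxna2: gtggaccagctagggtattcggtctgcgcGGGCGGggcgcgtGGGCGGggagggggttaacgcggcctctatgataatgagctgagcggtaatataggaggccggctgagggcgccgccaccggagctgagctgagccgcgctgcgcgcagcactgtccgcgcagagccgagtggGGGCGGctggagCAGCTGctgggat
The Plxna2 window held 3 GC boxes and 1 CAGCTG, the Unc5a and the shown Ntng2 window 1 CAGCTG each, and the Robo2 window neither motif. The window of the further Ntng2 peak also held neither. Of other lower members with a peak at the TSS, Efnb3 and Robo1 had neither motif in that window, and Nrp2 and Sema6c had 1 GC box each. Across 45 such windows at members, 17.8% held CAGCTG, against 17.1% of 10402 windows at TAF9B peaks in all. The 8 peaks at Sema6a and Dcc, among them the 3 of highest score at any member, were not used for motifs. GGGCGG, searched on both strands, was in 35.6% of the member windows and in 30.9% of all windows. The related E-box CAGATG, on both strands, was in 6.67% and 13.2%, and the homeodomain core TAATTA in 4.44% and 3.19%. These are matches of letters in a window, and the CAGATG share at members rests on 3 windows.

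RNA of guidance genes was already present in the ES cell libraries. In the ES cell WT-labelled library, 42 of 70 members were above 1 FPKM, and Epha2, an Eph receptor of epithelial and pluripotent cells, was the highest at 48.2 FPKM. Plxnb2, a widely expressed semaphorin receptor, and Ntn1, the diffusible netrin of the floor plate, followed at 32.7 and 26.4 FPKM. The 7 fibroblast markers summed to 338.3 FPKM in that library and 367.5 FPKM in its KO-labelled partner, with Col1a1 at 157.7 and 169.6 FPKM, and to 48.2 FPKM in WT EBs of day 6. The part of feeder RNA in the ES cell levels was not tested. By EB day 6 in WT cells 52 members were above 1 FPKM and the leading member was Ntng2, a membrane-anchored netrin-G, at 40.4 FPKM. Efnb3, the midline ephrin that keeps corticospinal axons from recrossing, led in both WT tissues, with 26.1 FPKM in spinal column and 102.5 FPKM in spinal cord. The highest member differed in the KO-labelled libraries: Epha2 at EB day 6, at 30.1 FPKM, and Sema3c, a class 3 semaphorin, in spinal column, at 19.4 FPKM.

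**Figure D1:**
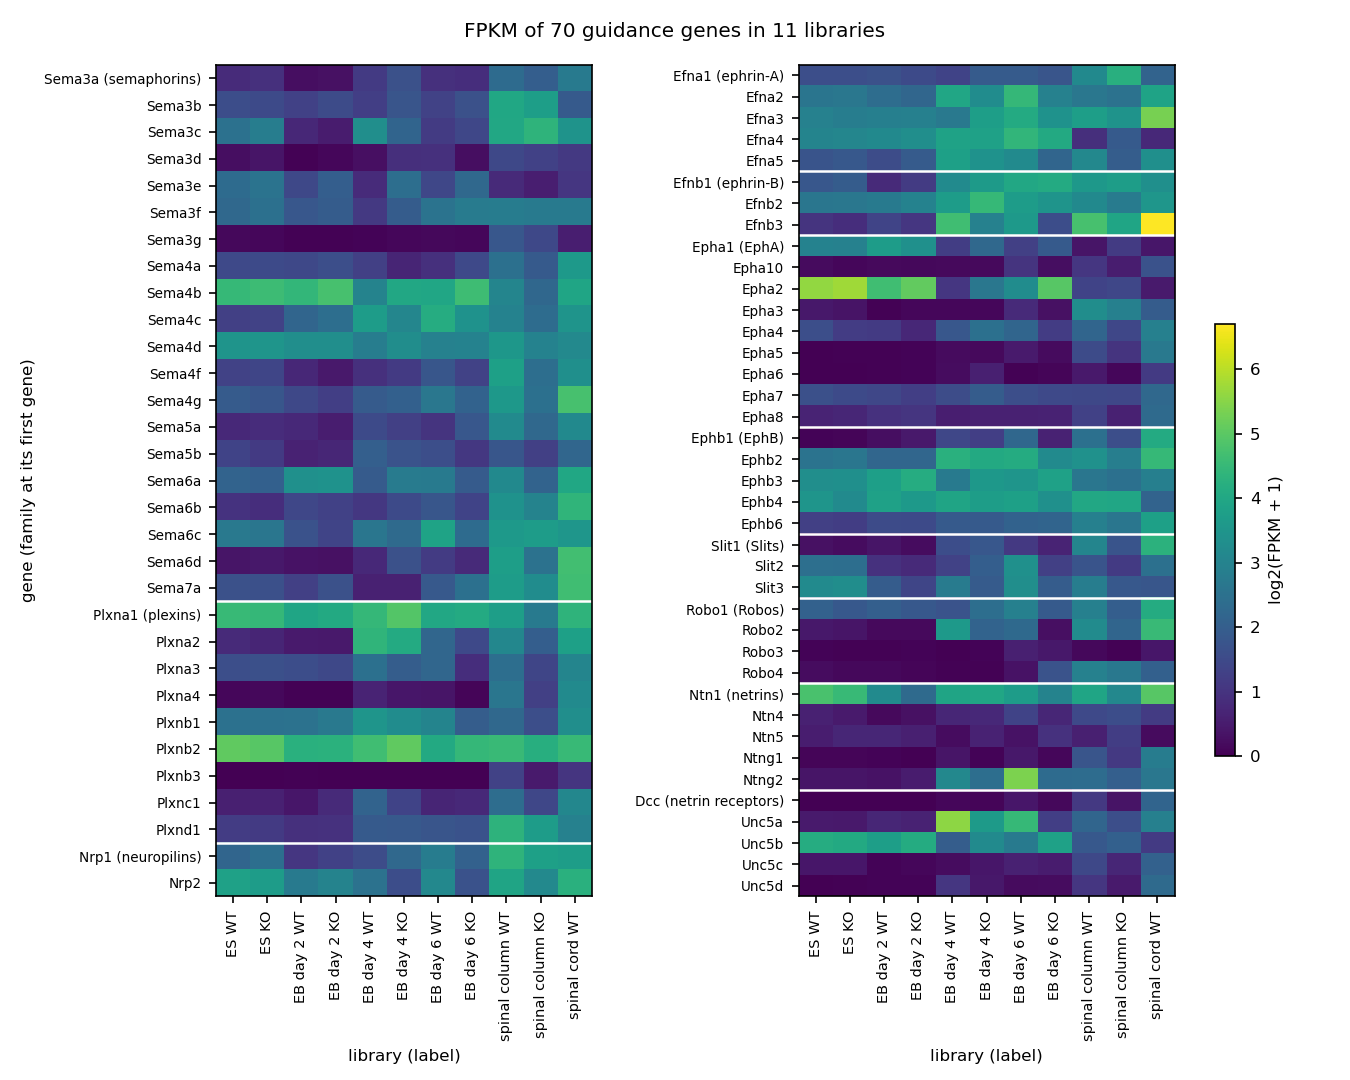
Heat map of log2(FPKM + 1) for the 70 members (rows, by family) in the 11 libraries (columns, 1 library each). Efnb3 in spinal cord is the brightest cell at 102.5 FPKM, Ntng2 stands out at EB day 6 WT, and Epha2 is high in ES cells and again in the EB day 6 KO-labelled library.

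Between WT ES cells and WT EBs of day 6, which come from tables normalised separately, 23 of 53 members above the limit were higher and 7 were lower. Over all genes the shares were 23% higher and 15.1% lower, and the median log2 ratio was 0.80 for members and 0.20 for all genes. The 5 largest increases were those of Ntng2 (0.300 to 40.4 FPKM), Ephb1 (0.0501 to 3.68 FPKM), Unc5a (0.390 to 21.4 FPKM), Sema4c (1.4 to 16.6 FPKM) and Efnb3 (1.01 to 11.4 FPKM). All 3 ephrin-B ligands and 4 of 5 ephrin-A ligands were among the higher ones. The lower ones were Epha2, Epha1, Sema3c, Unc5b, Sema3e, Ntn1 and Plxnb2, led by Epha2 at a log2 ratio of -2.48 and Epha1 at -2.31. In the KO-labelled libraries the same step gave 11 higher and 7 lower of 48 members, where all genes gave 16.8% and 9.59%, with a median of 0.13 against 0.15 for all genes. The largest there were Robo4 (0.107 to 2.28 FPKM), Ntng2, Sema4c, Efnb1 and Unc5a on the higher side and Nrp2, Sema3c, Ntn1, Slit2 and Slit3 on the lower. With 1 FPKM added to both values 15 members were higher with the WT label and 4 with the KO label, where 17.9% and 11.5% of all genes were.

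The culture stage with the highest level was day 6 for 23 and day 4 for 18 of the 56 members above 1 FPKM at any WT stage. In the KO-labelled libraries it was day 4 for 28 and day 6 for 9 of 55. As shares, day 4 had 32.1% of members with the WT label and 50.9% with the KO label, where all genes had 25.7% and 29.4%, and day 6 had 41.1% and 16.4%, where all genes had 35.8% and 31.9%. The 12 members that peaked in WT ES cells include Epha2, Unc5b, Sema3e, Nrp2, Ntn1 and Plxnb2.

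Before day 4 the KO- and WT-labelled libraries differed little. In ES cells 0 of 42 members were lower and 0 were higher, where 0.584% and 0.459% of all genes were, and member log2 ratios ran from -0.66 to 0.39. At EB day 2 Ntn1 was the only member past 2-fold with the limit met, at 8.24 FPKM in the WT-labelled library and 4.02 FPKM in the KO-labelled library, and no member of 39 was higher. With 1 FPKM added to both values 0 members were lower. Over all genes 1.36% were lower and 1.15% higher at that stage.

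**Figure D2:**
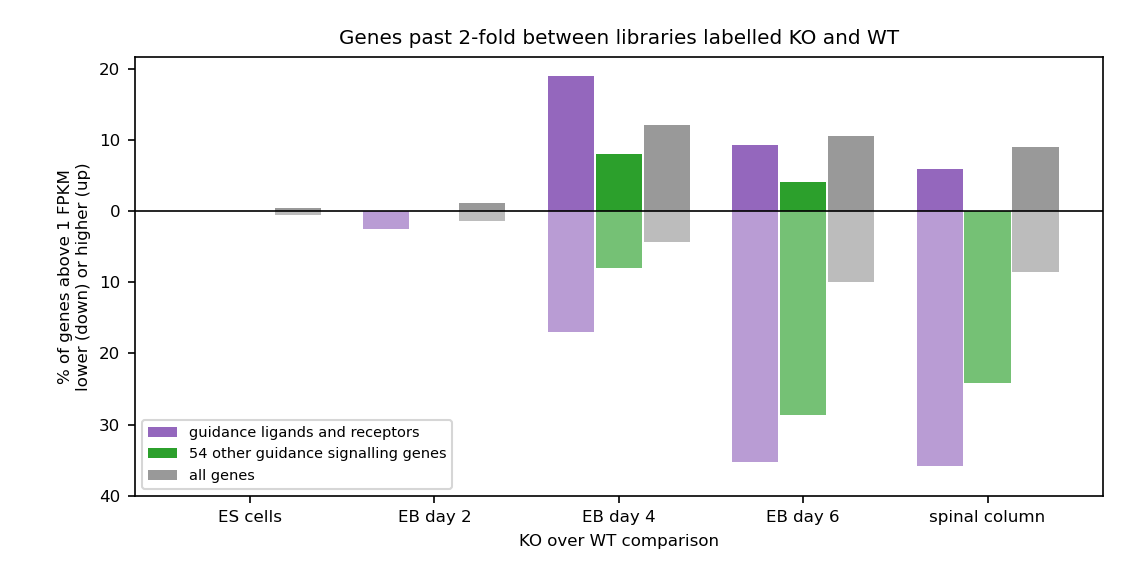
Bars give the percentage of genes above 1 FPKM that were more than 2-fold higher (upward) or lower (downward) in the KO-labelled library, for the members, 54 other guidance signalling genes and all genes, in 5 comparisons of 1 library each. Member bars below 0 reach 35.2% at EB day 6 and 35.8% in spinal column, against 9.91% and 8.58% for all genes.

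At EB day 4 members lay on both sides. Of 53 above the limit 9 (17%) were lower and 10 (18.9%) higher, where all genes gave 4.39% lower and 12.1% higher. With 1 FPKM added to both values 4 were lower and 6 higher (all genes 2.87% and 7.55%), and with a 3-fold limit 4 were lower and 3 higher (all genes 1.98% and 6.61%), so that the share of members on the higher side was then below that of all genes. Unc5a, which mediates repulsion by netrin, was at 46.1 FPKM in the WT-labelled library, its highest level in any library, and at 11.6 FPKM in the KO-labelled library, 3.98-fold lower. Efnb3 was at 24.0 and 6.65 FPKM and Robo2, a Slit receptor of spinal axons, at 11.1 and 3.39 FPKM. These 3 genes were all far lower in ES cells of either label, and the lower level of the KO-labelled library was still well above that. Unc5d, Sema3c, Nrp2, Sema4a, Plxnc1 and Slit3 were the other members lower at day 4.

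The higher side at day 4 held genes with high ES cell levels and others that were low there. Sema3e, the plexin-D1 ligand, was at 0.762 FPKM in the WT-labelled library and 4.40 FPKM in the KO-labelled library, 5.77-fold higher. Epha2 was at 1.09 and 5.25 FPKM and Unc5b at 2.93 and 8.22 FPKM. In ES cells of both labels these 3 genes were above their day 4 level of the WT-labelled library. Sema6d, at 0.700 and 2.17 FPKM, was instead at 0.297 and 0.350 FPKM in ES cells of the respective labels. The other higher members were Epha1, Sema3f, Efna3, Sema4b, Sema6a and Slit2. Several marker lists moved at day 4 as well: the 8 progenitor markers summed to 344.2 and 59.8 FPKM and all were lower, while pluripotency markers summed to 108.3 and 807.2 FPKM, epithelial markers to 125.5 and 600.3 FPKM and fibroblast markers to 4.73 and 33.1 FPKM, each with all its genes higher. Neuron markers summed to 71.0 and 70.5 FPKM, with 2 lower and 1 higher of 9 above the limit. Motor neuron markers summed to 3.01 and 6.13 FPKM, and Mnx1, at 2.32 and 5.01 FPKM, was the 1 above the limit. The part of these lists in the member differences was not tested.

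By EB day 6 lower members outnumbered higher ones. Of 54 members past the limit 19 were lower in the KO-labelled library and 5 higher. Those are 35.2% and 9.26% of the members, beside 9.91% and 10.5% of all genes, and the median log2 ratio was -0.73 for members and -0.0032 for all genes. A ratio below 1 was found for 66.7% of members and 50.2% of all genes. With a 3-fold limit 12 were lower and 2 higher, where 5.32% and 4.4% of all genes were. Dropping the netrin-G genes and adding Unc5cl kept these counts within 1.5 times.

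**Figure D3:**
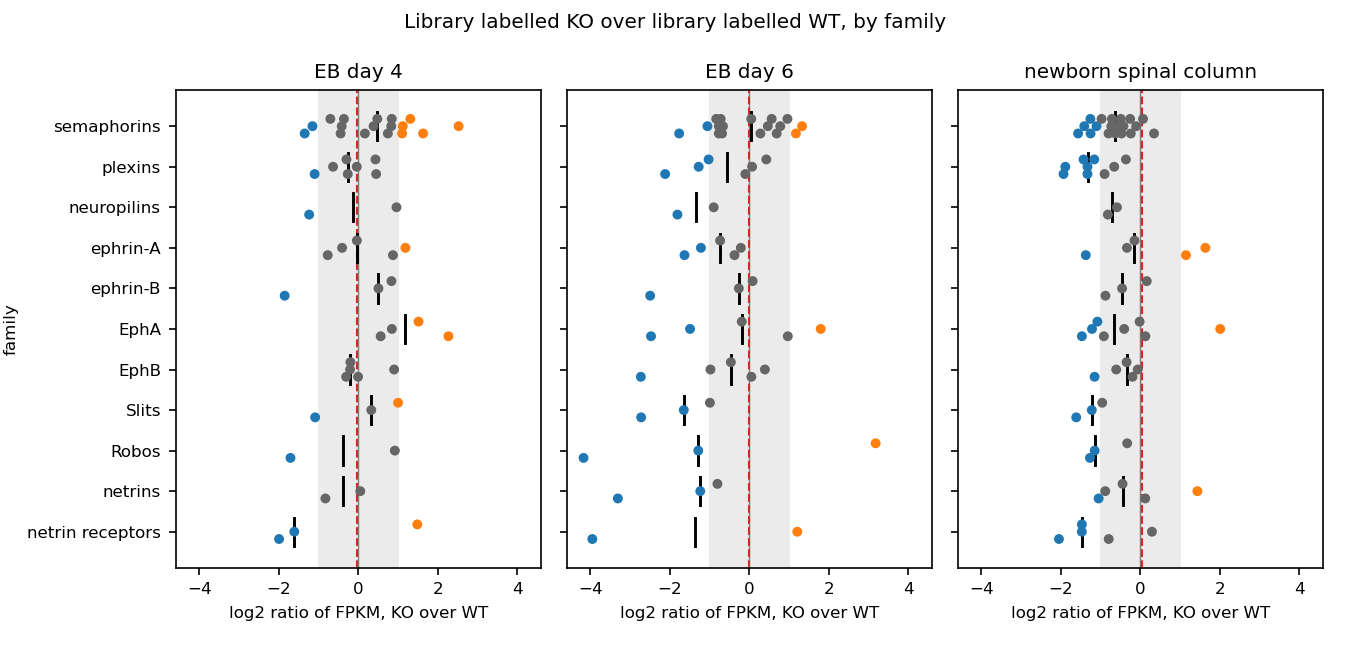
Log2 ratio of FPKM, KO-labelled library over WT-labelled library, for each member past the limit (points, 1 library per label), by family. Blue and orange points are past 2-fold, the grey band is within it, black bars are family medians and the red dashed line is the median of all genes. At EB day 6 Robo2 is farthest left at -4.17 and Robo4 farthest right at 3.18.

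The Slit and Robo genes held both the lowest and the highest member ratio at day 6. Robo2 was at 3.87 FPKM in the WT-labelled library and 0.215 FPKM in the KO-labelled library, 18-fold lower and the largest difference of any member there. Robo1, the other main Slit receptor of spinal axons, was at 6.61 and 2.71 FPKM. Robo4, which is known from blood vessel endothelium, went the other way, at 0.252 and 2.28 FPKM, and it was below 0.2 FPKM in all ES and earlier EB libraries. Robo3, the receptor that delays the response of commissural axons to Slit, stayed below 1 FPKM in every library, with 0.505 FPKM at WT day 6 its highest. The 3 Slits all had a ratio below 1 at day 6, Slit2 at 9.30 and 1.41 FPKM and Slit3 at 8.94 and 2.85 FPKM, both past 2-fold, and Slit1 at 1.14 and 0.575 FPKM, just inside it.

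Of 9 markers of vessels and early mesoderm, 5 were above the limit at day 6 and all 5 were higher in the KO-labelled library, with a summed level of 9.96 FPKM in the WT-labelled library and 32.8 FPKM in the KO-labelled library. Most of the sum was Pecam1, at 6.25 and 19.4 FPKM, and Eomes, at 1.77 and 7.09 FPKM, which were at 15.4 and 3.59 FPKM in WT ES cells. The endothelial genes Cdh5, Esam and Flt1 were the other 3, at 0.159 and 1.44 FPKM, at 0.471 and 2.31 FPKM and at 0.230 and 1.27 FPKM, whereas the endothelial receptor Kdr, below the limit, was at 0.487 and 0.376 FPKM. At day 4 the list summed to 3.30 and 12.7 FPKM, while Robo4 was at 0.0340 and 0.0368 FPKM. The part of such cells in the Robo4 difference was not tested.

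Netrin receptors split as well. Unc5a was at 21.4 FPKM in the day 6 WT-labelled library and 1.38 FPKM in the KO-labelled library, 15.5-fold lower, whereas its paralog Unc5b was at 5.73 and 13.3 FPKM, higher in the KO-labelled library as at day 4. In WT ES cells and spinal cord Unc5b was at 16.9 and 1.18 FPKM and Unc5a at 0.390 and 6.55 FPKM, the reverse order. Dcc, the attractive netrin receptor, Unc5c and Unc5d did not reach 1 FPKM at day 6, with Dcc at 0.314 FPKM in the WT-labelled library and 0.114 FPKM in the KO-labelled library. Among the netrins, Ntng2 was 9.90-fold lower, at 40.4 and 4.08 FPKM, and Ntn4, a netrin of basement membranes, was at 1.53 and 0.649 FPKM. Ntn1 was at 12.1 and 6.93 FPKM, inside 2-fold, and Ntn5 and Ntng1 did not reach 1 FPKM.

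**Figure D4:**
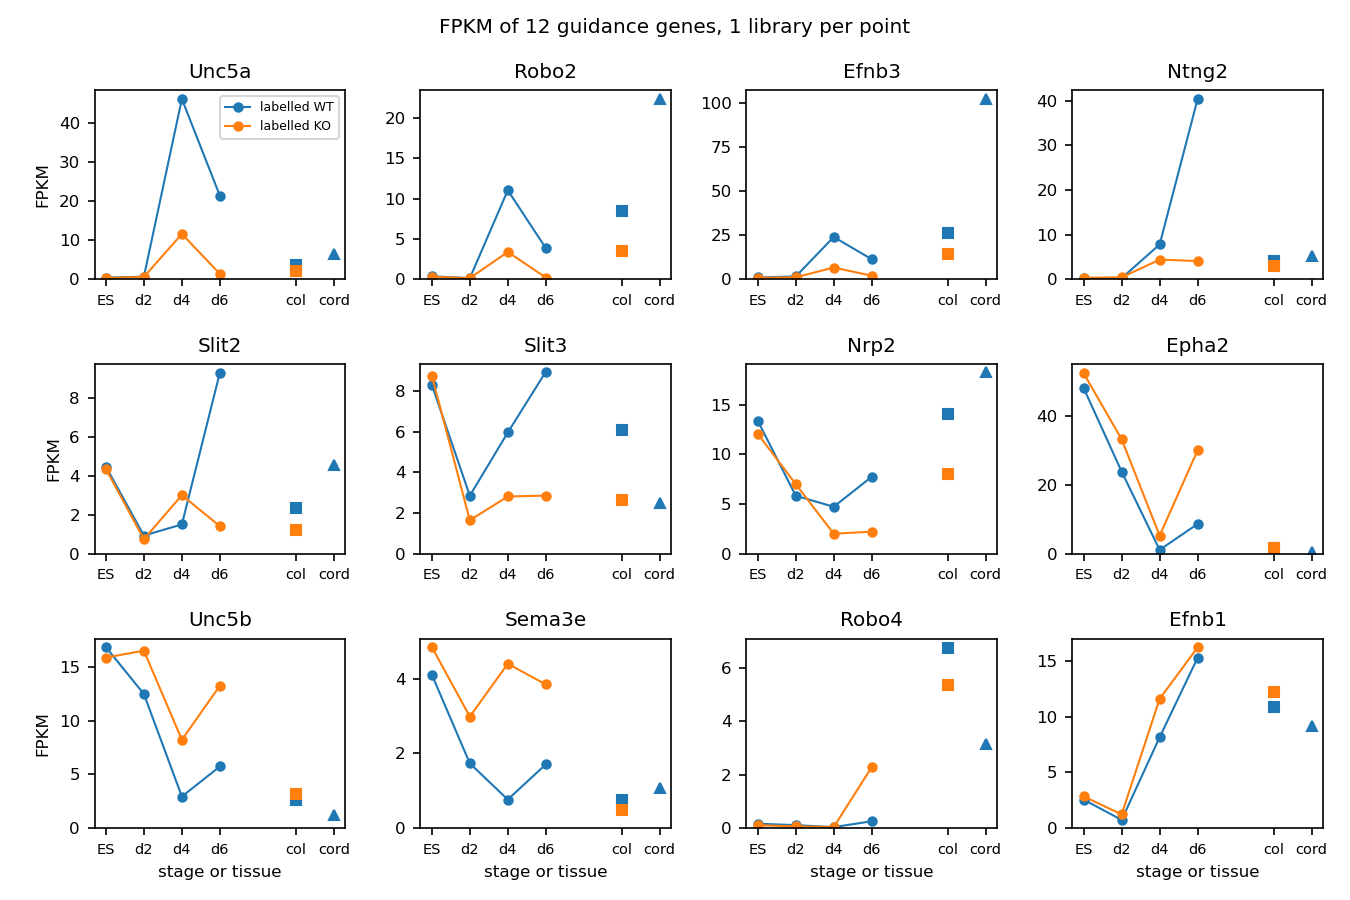
FPKM of 12 members by stage, 1 library per point: ES cells, EB days 2, 4 and 6 (circles joined by lines), newborn spinal column (col, squares) and newborn spinal cord (triangle, WT only), blue for WT-labelled libraries and orange for KO. Among the cultures Unc5a, Robo2 and Efnb3 peak at day 4 with either label. Epha2 and Unc5b have their lowest culture level at day 4 with either label and are higher there in the KO-labelled library. Tables were normalised separately, so levels across stages are side by side only.

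Ephrins and Eph receptors differed member by member. Efnb3 was at 11.4 and 2.02 FPKM at day 6 in the WT- and KO-labelled libraries, 5.63-fold lower, and Efna2 at 20.9 and 6.74 FPKM. Efnb1, a close relative of Efnb3, was at 15.3 and 16.2 FPKM. Efnb2, the ephrin of arteries, was at 12.1 and 10.1 FPKM. All 5 ephrin-A ligands had a ratio below 1, and Efna2 and Efna5 were past 2-fold.

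Ephb1, known from retinal axons at the optic chiasm, was at 3.68 and 0.554 FPKM, 6.63-fold lower. Epha4, which sends limb motor axons dorsally, was at 3.55 and 1.26 FPKM, and Epha10, a family member that lacks kinase activity, at 1.03 and 0.185 FPKM. The others above 1 FPKM among EphB receptors, Ephb2, Ephb3, Ephb4 and Ephb6, were within 2-fold, Ephb2 nearest the limit at 16.3 and 8.29 FPKM. Epha2 was at 8.65 and 30.1 FPKM, 3.48-fold higher. In ES cells it was at 48.2 and 52.5 FPKM.

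At day 6, 2 of 17 semaphorins above the limit were lower and 2 higher (11.8% each), near the 9.91% and 10.5% of all genes, with a median log2 ratio of 0.05. Sema6c, a transmembrane semaphorin, was at 13.8 and 4.05 FPKM and Sema6a at 5.82 and 2.81 FPKM. Sema5a, at 1.01 and 2.53 FPKM, and Sema3e, at 1.70 and 3.85 FPKM, were higher. The most abundant in the WT-labelled library, Sema4c at 16.6 FPKM and Sema4b at 14.7 FPKM, were at 9.76 and 23.7 FPKM in the KO-labelled library, both inside 2-fold and in opposite directions.

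Among their receptors 3 of 6 plexins were lower at day 6. Plxna3, a co-receptor for class 3 semaphorins, was at 3.60 and 0.829 FPKM, Plxnb1 at 7.12 and 2.95 FPKM and Plxna2 at 3.61 and 1.77 FPKM. Plxnb2 and Plxna1, the plexins with the highest levels, were at 15.7 and 21.1 FPKM and at 15.2 and 16 FPKM. Nrp2, which binds class 3 semaphorins such as Sema3f, was at 7.73 and 2.21 FPKM, 3.50-fold lower, and Nrp1 at 6.06 and 3.26 FPKM, inside 2-fold.

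Markers of other cell types differed between the day 6 libraries as well. The 12 neuron markers summed to 1270.9 FPKM in the WT-labelled library and 146.8 FPKM in the KO-labelled library, and all 12 were lower. The 6 motor neuron markers summed to 46.1 and 2.88 FPKM, with all 6 above 1 FPKM in the WT-labelled library and Chat, which makes acetylcholine, listed at 0 in the KO-labelled library. Pluripotency markers (7 genes) summed to 1385.6 and 4080.7 FPKM and epithelial markers (6 genes) to 227.6 and 1311.8 FPKM, and none of these was at 0 in either library. Fibroblast markers summed to 48.2 and 130.8 FPKM and progenitor markers to 179.7 and 19.5 FPKM. In bulk RNA fewer cells of a type and less RNA per cell cannot be told apart, and the part of these markers in the member differences was not tested.

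In newborn spinal column 24 of 67 members (35.8%) were lower and 4 (5.97%) higher in the KO-labelled library, where 8.58% of all genes were lower and 8.97% higher. The median log2 ratio was -0.73 for members and 0.05 for all genes, and 85.1% of members (57 of 67) had a ratio below 1, where 46.9% of all genes did. With 1 FPKM added to both values 11 members and 4.02% of all genes were lower, and with a 3-fold limit 4 members and 2.29%. Receptors made up 15 of the 24, and 6 of 9 plexins were among them.

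Dcc stood first, at 1.18 FPKM in the WT-labelled library and 0.286 FPKM in the KO-labelled library, 4.13-fold lower. Unc5c and Unc5d, which share netrin as ligand with it, were at 1.76 and 0.635 FPKM and at 1.07 and 0.386 FPKM. These 3 receptors were all below 1 FPKM in WT EBs of day 6, and all were low in spinal column too. Unc5a was at 3.57 and 2.06 FPKM and Unc5b at 2.60 and 3.18 FPKM, inside 2-fold. Ntng1, the netrin-G partner of thalamocortical axons, was at 2.43 and 1.17 FPKM, Ntng2 at 4.15 and 3.04 FPKM, Ntn4 at 1.81 and 1.98 FPKM, and Ntn1 at 14.3 and 7.76 FPKM, of which only Ntng1 was past 2-fold.

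All 9 plexins had a ratio below 1 in the column, and 6 were past 2-fold. Plxnb3, known from oligodendrocytes, was at 1.52 and 0.398 FPKM, and Plxna4, a receptor of sensory and sympathetic axons, at 5.24 and 1.42 FPKM. Plxna2 was at 7.53 and 3.0 FPKM and Plxna3 at 4.36 and 1.62 FPKM, and these last 2 were lower at EB day 6 as well. Plxna1 and Plxnc1 completed the 6. Neuropilins were inside 2-fold, Nrp1 at 19.4 and 12.9 FPKM and Nrp2 at 14.1 and 7.98 FPKM.

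Of the Slits, Slit1, the member made largely in the nervous system, was at 7.22 and 2.36 FPKM, 3.06-fold lower, and Slit3 at 6.10 and 2.62 FPKM. Slit2 was at 2.35 and 1.21 FPKM, just inside 2-fold. Robo2 was at 8.48 and 3.52 FPKM and Robo1 at 6.59 and 2.97 FPKM, both past 2-fold, while Robo4 was at 6.77 and 5.38 FPKM. Robo2 and Slit3 were the 2 members lower at EB day 4, at EB day 6 and in spinal column, and no member was higher in all 3. Of genes above the limit in all 3 comparisons, 49 members and 11321 in all, 4.08% of members and 0.406% of all genes were lower in each, and 0.813% of all genes were higher in each. These counts rest on the culture labels as given.

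Of 19 semaphorins in the column 17 had a ratio below 1 and 5 were past 2-fold on the lower side, which were Sema4f (12.9 and 4.36 FPKM), Sema6d (12.6 and 4.74 FPKM), Sema6a (8.00 and 3.35 FPKM), Sema4g (10.9 and 4.57 FPKM) and Sema5a (8.16 and 3.8 FPKM). Sema3c, at 15.2 and 19.4 FPKM, was 1 of the 2 with a ratio above 1. Cuffdiff gave the status FAIL to Sema6d and Plxnb2 in this table, so the value of Sema6d is uncertain.

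Efna5, an ephrin of topographic maps, was at 7.68 and 2.97 FPKM and was the only ephrin past 2-fold on the lower side. The most abundant ephrin, Efnb3, was at 26.1 and 14.2 FPKM. Among the Eph receptors Epha8, Epha10, Epha4 and Ephb1 were lower, Epha4 at 3.56 and 1.69 FPKM and Ephb1 at 4.53 and 2.04 FPKM. The 4 higher members were Epha1, at 0.310 and 1.25 FPKM, Efna4, at 0.871 and 2.71 FPKM, Ntn5, at 0.496 and 1.35 FPKM, and Efna1, a ligand of Epha2, at 7.98 and 17.7 FPKM. Only Efna1 was above 1 FPKM in both libraries. By the mm9 annotation 25.9% of the exonic bases of Ntn5 and 10.5% of those of Efna4 also lie in exons of a gene on the other strand, as do 14.1% of those of Efna3 and 10.7% of those of Plxna1, and 14.1% of those of Ntng2 lie in exons of another gene on the same strand. Since strand was not stated, reads of such overlaps cannot be assigned.

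Of the 24 members lower in the column 10 (41.7%) were also lower at EB day 6, where they made up 52.6% of 19. Over all genes the shares were 22% of 1217 and 20.9% of 1282. The 10 were Efna5, Epha10, Epha4, Ephb1, Plxna2, Plxna3, Robo1, Robo2, Sema6a and Slit3. This overlap rests on the day 6 labels as given. Sema5a, lower in the column, was higher at day 6. The column libraries also differed in tissue markers. Neuron markers summed to 1393.8 and 762.0 FPKM and 8 of 12 were lower, glial markers (7 genes) to 151.4 and 117.0 FPKM, fibroblast markers (7 genes) to 3563.8 and 2916.9 FPKM, and markers of muscle, cartilage and blood (10 genes found) to 4039.3 and 6558.8 FPKM. Single genes carry the last 2 sums. Col1a1 was at 1423 and 753.2 FPKM, while 4 of 7 fibroblast markers had a ratio above 1 and Lum was past 2-fold higher. Tnnt3 was at 2927 and 4489 FPKM, while Myh3 and the cartilage genes Col2a1, Acan and Col9a1 had a ratio below 1. In that list Acta1 is listed at 0 in both and Myh8 at 0 in the WT-labelled library and at 753.0 FPKM in its partner. Epithelial markers summed to 9.35 and 24.1 FPKM and 3 of 5 above the limit were higher, Epcam at 0.428 and 4.14 FPKM and Krt8 at 2.09 and 8.24 FPKM among them. Motor neuron markers were low in both, at 28.6 and 13.1 FPKM in sum with Isl1 and Isl2 above 1 FPKM in both and Mnx1 listed at 0 in the KO-labelled library. Their part in the member differences was not tested.

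Across the 5 comparisons of KO- with WT-labelled libraries 47 members were past 2-fold with the limit met at least once and 23 never were. Of the 68 members above the limit in any of these comparisons that is 69.1%, where it was 35.6% of all genes. Sema3d, among the 23, was more than 2-fold apart at EB day 6 but below the limit, at 0.919 and 0.191 FPKM. Robo3 alone of them stayed at or below 1 FPKM in every library. Members more abundant in spinal column than in spinal cord were among them: Plxnd1, the Sema3e receptor of blood vessels, was at 19.0 and 12 FPKM in the WT- and KO-labelled column libraries and 6.74 FPKM in cord, Sema3b at 14.9 and 12.5 FPKM and 2.71 FPKM, and Epha3 at 8.70 and 6.57 FPKM and 2.85 FPKM. Sema3g, also known from vessels, was at 2.56 and 1.73 FPKM in column, 0.485 FPKM in cord and no higher than 0.104 FPKM in the 8 culture libraries as compared by label. Those tables were normalised separately, and column and cord are side by side only.

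Among the 23 some varied little between culture stages and others more. Ephb4, the venous receptor of Efnb2, was at 8.23 to 14.1 FPKM in the 8 culture libraries, and Epha7 at 1.38 to 2.87 FPKM, which is just past 2-fold between its extremes. Sema7a, a membrane-anchored semaphorin, was at 0.528 and 0.540 FPKM at EB day 4, at 2.63 and 4.53 FPKM at day 6, and at 23.8 FPKM in cord. Epha5 and Epha6 were below the limit in all culture libraries and reached 5.58 and 1.21 FPKM in cord.

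In newborn spinal cord most members were at higher levels than in ES cells. Of 67 members past the limit in the table that holds both libraries, 44 were higher and 7 lower, where all genes gave 30.4% higher and 35.8% lower, and the median log2 ratio was 2.24 for members and -0.26 for all genes. Requiring 1 FPKM in both libraries left 20 higher and 4 lower of 40, where all genes gave 19.3% and 36.6%. Dcc, Unc5d, Epha5, Ephb1 and Epha6 had the largest ratios, from 7.21 to 10.77 on the log2 scale, from ES cell levels of at most 0.0546 FPKM. The higher members of highest level in cord were Efnb3 at 102.5 FPKM, Efna3 at 38.8 FPKM and Sema4g at 25.7 FPKM. Epha2, Epha1, Unc5b, Efna4, Sema3e, Slit3 and Ephb4 were lower, Epha2 from 52.5 FPKM in the ES cell library to 0.406 FPKM.

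The cord and ES cell libraries of that table are not in the day 6 or column comparisons of KO with WT, so the members can be read by their cord class. Among the 31 members higher in cord that passed the limit at EB day 6, 14 were lower in the KO-labelled library (45.2%) and 2 higher (6.45%). Among all 2841 such genes 32.5% were lower and 6.44% higher. In spinal column the same class gave 22 lower of 43 (51.2%) and 0 higher, where 20.4% of 3954 genes were lower and 3.92% higher. Among the 7 lower in cord, 3 were higher in the day 6 KO-labelled library (Epha2, Unc5b, Sema3e) and Slit3 was lower. Of 4893 such genes 15.1% were higher and 1.7% lower.

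Genes that act with these receptors were taken from a list of 54 adhesion, cytoskeletal and signalling genes. At EB day 6, 14 of 49 above the limit were lower and 2 higher in the KO-labelled library, where 9.91% and 10.5% of all genes were, and in spinal column 13 of 54 were lower and 0 higher, where 8.58% and 8.97% were. The largest at day 6 were Cntn2, an adhesion protein of commissural axons, at 33.9 and 0.909 FPKM, Dpysl4, a collapsin response mediator, at 52.1 and 4.04 FPKM, and Cxcr4, the chemokine receptor of motor axons, at 39.6 and 3.54 FPKM. Of the higher ones Flrt2 was at 1.45 and 3.79 FPKM, and Met, at 1.5 and 2.80 FPKM, was inside 2-fold. In spinal column L1cam led with 30.2 and 6.91 FPKM, followed by Cntn2 at 4.29 and 1.10 FPKM and Srgap3, a Robo effector, at 12.5 and 3.81 FPKM. The highest ratios there were inside 2-fold, those of Nck1 (10.1 and 18.5 FPKM), Cxcr4 (9.60 and 14.2 FPKM) and Rhoa (164.7 and 227.7 FPKM).

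TAF9B peaks were assigned to 34 of the 70 members. A peak with its midpoint within 500 bp of a TSS was found at 17 members (24.3%, Wilson 95% interval 15.8 to 35.5%), where 20.8% of 17831 annotated genes had one, and at 27.8% of the 54 members above 1 FPKM at EB day 6, where 30.3% of such genes did. Distal peaks, assigned to the nearest TSS up to 50 kb away, were found at 26 members (37.1%, interval 26.8 to 48.9%) against 16.1% of all genes, and at 37% of the expressed members against 19.2%. Member genes are long, with a median span of 57.5 kb where all annotated genes have 17.9 kb, and the part of length in the distal share was not tested. Intervals cover counting error only, and each antibody is 1 library.

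The members with a peak at a TSS, in order of score, were led by Sema6a, Dcc, Epha7, Plxna2, Epha3 and Efnb1, with scores from 424.8 down to 117.2. Then came Ephb3, Sema5b, Sema4f, Nrp2, Efna1, Efnb3, Ephb2, Ephb6, Sema6c, Robo1 and Plxnb2. Ephrins and Eph receptors gave 8 of the 17 from 22 genes, Slits and Robos 1 from 7 and netrins with their receptors 1 from 10. Dcc and Epha3 had a peak although their mRNA was at 0.314 and 0.755 FPKM in WT EBs of day 6, which were grown from another clone than the ChIP cells. Sema6a also had 6 distal peaks, up to 44.7 kb upstream, the most of any member.

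Of 18 TAF9B peaks at member TSSs 10 overlapped a Pol2 peak, where 66.6% of 4214 TAF9B peaks at any TSS did, and of 35 distal peaks 4 did, where 13.9% of 4257 did. Pol2 peaks at a TSS were found at 20 members (28.6%, interval 19.3 to 40.1%), where 34.5% of all genes had one, and at 35.2% of expressed members where 53.7% of expressed genes did. The distal peaks had a median distance of 3.03 kb, and 19 of 35 were within 5 kb. The Robo2 and Unc5a peaks whose sequence is shown above overlapped no Pol2 peak, and the Plxna2 peak did.

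**Figure D5:**
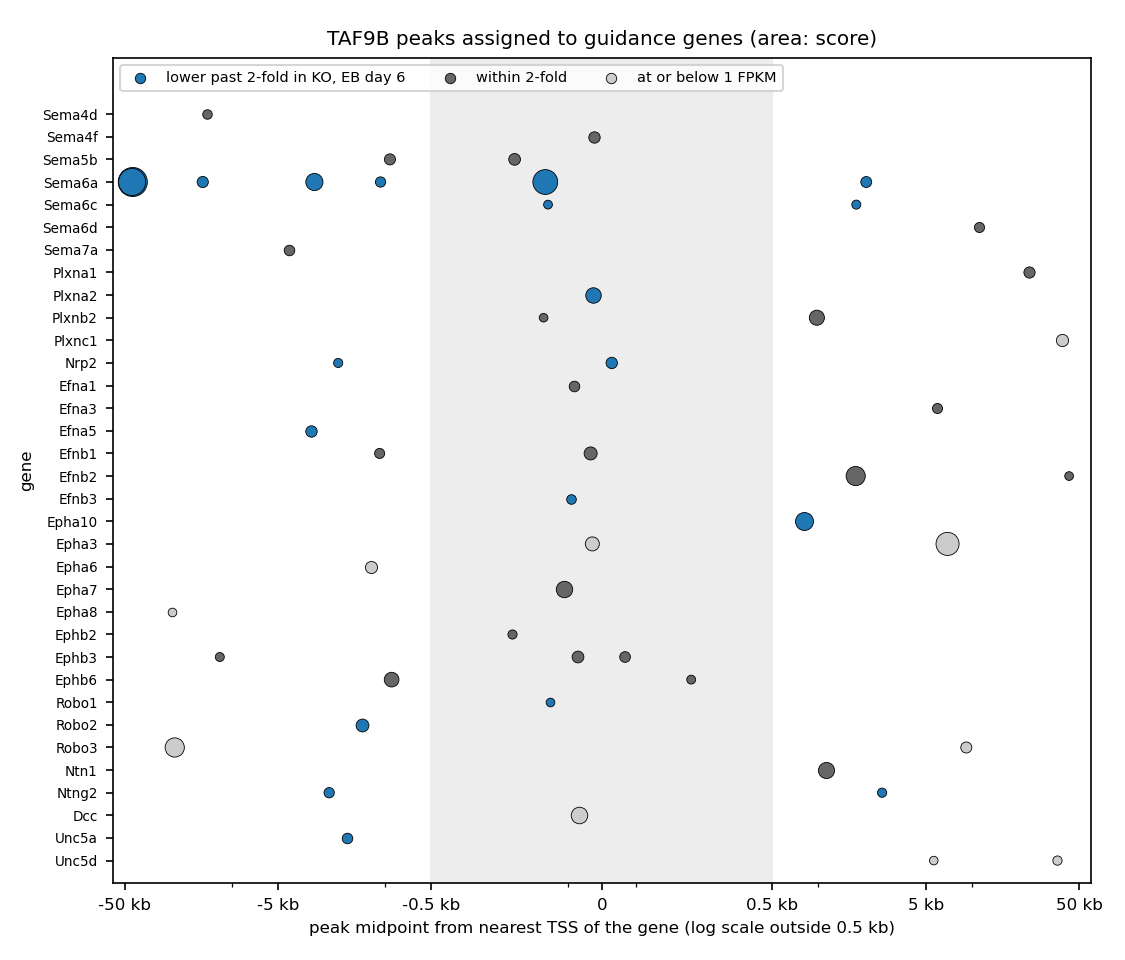
Position of the 53 TAF9B peaks assigned to 34 members, as distance of the peak midpoint from the nearest TSS of the gene (negative is upstream, linear within 0.5 kb and logarithmic beyond), with point area proportional to the MACS score. Blue marks members lower past 2-fold in the EB day 6 KO-labelled library, dark grey those within 2-fold and light grey those at or below 1 FPKM. The grey band holds the 18 peaks within 500 bp.

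Set beside the day 6 comparison, whose EBs are of another clone and an earlier day than the ChIP cells, 6 of the 19 members lower in the KO-labelled library had a TAF9B peak at a TSS (Efnb3, Nrp2, Plxna2, Robo1, Sema6a, Sema6c), and 28% of all genes lower there did. A distal peak was present at 8 (Efna5, Epha10, Nrp2, Ntng2, Robo2, Sema6a, Sema6c, Unc5a), and 32.2% of all lower genes had one. Of the 30 members within 2-fold, 9 had a peak at a TSS and 12 a distal one, where 33% and 17.9% of all such genes did. The 5 higher members had none of either kind and no Pol2 peak at a TSS. Of all higher genes 12% had a TAF9B peak at a TSS, 17.6% a distal one and 11.6% a Pol2 peak at a TSS.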

How the data were processed

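Poly-A RNA of 11 libraries and ChIP DNA of 2 libraries were analysed. The FPKM values are those the authors deposited, which TopHat and Cuffdiff gave for RefSeq genes in 6 tables of 23152 loci, each table normalised by itself. The peak score is the MACS score the authors deposited, for 10415 TAF9B and 8620 Pol2 peaks, after mapping with Bowtie to mm9. Versions are not given in the sources used here. Columns with the authors' fold changes and p-values were not used, and the IgG ChIP was not analysed here.

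Symbols were assigned through RefSeq accessions (98.6% of loci), with the locus of highest FPKM for each gene. Log2 ratios have no pseudocount. The members, gene lists and alternatives were chosen with earlier results of these data known. In each comparison the members past 2-fold with the 5 largest rises and 5 largest falls are named, with the top member of each library and family, the members lower or higher at EB day 4, EB day 6 and in spinal column, those with TAF9B at a TSS, all Ntn, Unc5, Dcc, Robo, Slit and Nrp genes, and the 3 largest of the signalling list in each direction at EB day 6 and in spinal column. Other genes were chosen after their values were seen.

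TSSs came from GENCODE vM1, whose NCBIM37 genome is mm9 and gave the sequences. The calling was tested on simulated data. Python 3.11.15, numpy 2.4.6, pandas 2.3.3, scipy 1.17.1 and matplotlib 3.10.9 were used.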

Additional observations from a re-analysis of the deposited data

Results flagged for a closer look

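Members past 2-fold in opposite directions in different comparisons of the KO- and WT-labelled libraries were singled out. The differences between comparisons were not tested, since each condition is 1 library. Slit2 had a log2 ratio of 1.0 at EB day 4 and -2.72 at EB day 6. Sema6a had 1.10 at EB day 4, -1.05 at EB day 6 and -1.26 in newborn spinal column. Sema6d had 1.63 at EB day 4 and -1.41 in newborn spinal column, where its Cuffdiff status was FAIL. Sema5a had 1.33 at EB day 6 and -1.10 in newborn spinal column. The opposite directions of Sema5a and Sema6d rest on the culture labels as given. The Slit2 ratio at day 4 and the Sema6a ratio at day 6 lie close to the 2-fold limit.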

How the results depend on the processing

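Of 187 alternative values for 24 counts and medians, 155 stayed within 1.5 times of the reported value (for a median log2 ratio, within 1.5 times as a fold) and 32 did not. Every median kept its sign, and the largest shift was from -0.73 to -0.46 at EB day 6 and from -0.73 to -0.56 in spinal column, both with 1 FPKM added. With 1 library per condition no library could be left out and no paired analysis was possible because no comparison has more than 1 pair. Centring on all genes, the changed member rule and, chosen after seeing the data, keeping loci with Cuffdiff status OK moved no count that far. The status filter took out members in spinal column only. Summing loci could change no member value, since all 70 members have 1 locus, and its 21 values are among the 155. The counts that moved are given here as KO over WT unless stated. With 1 FPKM added to both values 0 members were lower at EB day 2, 4 lower and 6 higher at day 4, 3 higher at day 6, 11 lower and 1 higher in spinal column, and 15 (WT) and 4 (KO) higher at EB day 6 over ES cells. With a 3-fold limit 0 were lower at day 2, 4 lower and 3 higher at day 4, 12 lower and 2 higher at day 6, 4 lower and 2 higher in spinal column, and for EB day 6 over ES cells 3 lower and 14 higher (WT) and 6 higher (KO). With no filter on low values 1 was lower and 3 higher in ES cells, 3 lower and 5 higher at day 2, and 20 higher at EB day 6 over ES cells (KO), and at 0.5 FPKM 1 was higher at day 2. Requiring 1 FPKM in both libraries left 1 higher in spinal column, 13 (WT) and 5 (KO) higher at EB day 6 over ES cells, and 4 lower and 20 higher in spinal cord over ES cells. With peaks of scores above the median 10 members had TAF9B at a TSS, 14 a distal TAF9B peak and 9 Pol2 at a TSS. Fewer values pass a stricter limit by construction. The 0 members past 2-fold in ES cells carry no p-value, and differences of genes near 1 FPKM rest on the fewest fragments.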
